A study of Mus musculus with 272 samples.

Results

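The genes described here are the cytosolic translation elongation factor genes of the mouse: Eef1a1, Eef1b2, Eef1d, Eef1g, Eef1e1, Eef2 and Eefsec. They were taken by name, 7 of the 15854 gene symbols in the deposited table, and all 7 passed the filter on low values (a CPM of at least 1 in at least 3 or 4 samples) in every comparison. Their RNA was measured at 8 stages: the germinal vesicle (GV) oocyte, the metaphase II (MII) oocyte, the zygote, the 2-cell, 4-cell and 8-cell embryo, the morula and the blastocyst. For the transcriptomes, 20 oocytes or embryos were pooled per library, with 4 libraries at each stage (32 in all). For the gradients, lysates of about 100 oocytes or embryos were spun through sucrose and cut into 10 fractions, with 3 gradients at each stage, lettered A to C (240 fraction libraries in all). All lysates of all stages were made in cycloheximide, a drug that halts elongation and holds ribosomes on the transcript. The labels name no strain, genotype, age or culture condition, and give no other treatment.

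During elongation, the product of Eef1a1 brings each charged tRNA to the ribosome as a complex with GTP. The products of Eef1b2 and Eef1d exchange the spent GDP on it for GTP, and that of Eef1g holds the exchange complex together. The product of Eef2 then moves the ribosome along by one codon, and that of Eefsec delivers only the tRNA for selenocysteine. The product of Eef1e1, named after the same complex, is better known as a subunit of the complex that gathers several aminoacyl-tRNA synthetases. Many transcripts of the translation machinery, those of ribosomal proteins and elongation factors among them, begin with a C followed by a run of pyrimidines, the terminal oligopyrimidine (TOP) motif, through which their translation follows mTOR signalling. In the mouse, the growing oocyte stores transcripts, meiotic maturation goes along with removal of many of them, and the embryo's own genome becomes active mainly at the 2-cell stage.

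The first 30 bases of 5 of these transcripts are shown because the TOP motif is defined by them. They were taken from the GENCODE release M21 transcripts (GRCm38, a build other than that in the submitters' notes), 5′ to 3′ in DNA letters. Capitals mark a C followed by at least 4 pyrimidines (C or T), searched on the transcript's own strand. Where a gene has several coding transcripts, one that opens with such a tract is shown if there is one.
Eef1d-217 (chr15:75909277-75909306, minus strand): CTCTCCTTTgcagtcctgagctcgcagttc
Eef1e1-201 (chr13:38659029-38659058, minus strand): ggaCTTCCTgctcaatcaaggtcctagctg
Eef2-201 (chr10:81176631-81176660, plus strand): gttgacgtcagcggtCTCTTCCgccgcagc
Eef1g-201 (chr19:8967041-8967070, plus strand): tttccaactcagcggggctgtagacggaac
Eef1a1-201 (chr9:78481695-78481724, minus strand): ttcccgagggtgggggagaacggtatataa
All 5 stretches lie in the first exon. In Eef1d the tract ran for 9 bases from base 1, in 1 of 15 annotated coding transcripts. In Eef1e1 it began at base 4 and in Eef2 at base 16. Of the 5 starts shown, that of Eef1d was the one with a tract within the first 3 bases, and the share among all 7 genes is not reported here. In that window a tract began in at least 1 coding transcript of 29 of 79 cytosolic ribosomal protein genes (36.7%) and of 1960 of 13438 genes of the table with a coding transcript (14.6%). Annotated starts can lie some bases away from the start used in a cell, so these letters describe the annotation and no TOP status was assigned from them. Within the first 50 bases, 71.5% of all genes held such a tract.

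Levels were deposited as read counts scaled to each library's total (CPM), which compares a gene between libraries and carries no correction for transcript length. The labels give the molecule as polyA RNA, so a level is a share of the polyadenylated RNA of that library, and no amount of RNA per embryo was used. Depth ran from 11.23 to 24.26 M reads in the transcriptome libraries and from 0.01024 to 43.21 M in the fraction libraries. Fraction 1 of GV gradients A and B held only 0.01024 and 0.02314 M reads, and entered the GV light means like any other fraction. The 2-cell and 4-cell fractions were the shallowest as a group, with medians of 10.29 and 8.502 M reads, and their gradients agreed least. In the heavy-fraction comparison their estimated weights were 0.287 and 0.228, beside 0.592 to 4.09 for the other stages. Of the 210 fraction values of the 7 genes per stage, 52 (24.8%) were 0 at the 2-cell stage and 19 (9.05%) at the 4-cell stage, against 0 to 10 elsewhere. Summed oocyte markers ran from 17540 to 20469 CPM in the GV transcriptomes, 2-cell markers from 1749 to 2427 CPM in the 2-cell transcriptomes and blastocyst markers from 2348 to 2860 CPM in the blastocyst transcriptomes, each the highest of the 8 stages. The 3 cumulus or granulosa cell markers found in the table summed to 38.4 to 69 CPM in the GV, MII and zygote transcriptomes, 6.04 to 13 CPM at the 2-cell stage and at most 0.406 CPM later. Nothing in the labels says that replicates came from separate animals or collections, so each p-value measures only the spread between these samples. A change was called, and is described as a rise or a fall, where limma gave a Benjamini-Hochberg adjusted p under 0.05 over all genes tested and a change of at least 1 on the log2(CPM + 1) scale. The count tests edgeR and DESeq2, run on reads recovered from the CPM, and other settings served as alternatives.

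Eef1a1, the carrier of charged tRNAs, went through a deep trough in the MII oocyte. Its transcriptome level was 468, 433, 438 and 385 CPM in the 4 GV libraries, then 20.3, 22.6, 14.6 and 23.9 CPM in the 4 MII libraries. The zygote libraries held 67.2, 62.6, 69.7 and 51.2 CPM and the 2-cell libraries 453, 415, 381 and 445 CPM. None of these neighbouring stages overlapped, and the 2-cell range lay over the GV range (means 423 ± 32.9 and 431 ± 34.5 CPM, SD, n = 4). The 4-cell libraries reached 1739, 1263, 1718 and 1351 CPM, and the morula (2440 ± 505 CPM) and blastocyst (2210 ± 385 CPM, SD, n = 4) stood highest and overlapped each other. On the log2(CPM + 1) scale Eef1a1 fell by 4.36 from GV to MII (SE 0.12, limma adjusted p = 1.55e-28), rose by 1.59 to the zygote (SE 0.13, adjusted p = 4.85e-13), by 2.74 to the 2-cell stage (SE 0.15, adjusted p = 6.41e-19) and by 1.83 to the 4-cell stage (SE 0.19, adjusted p = 2.59e-11). In bulk RNA of pools, fewer oocytes or cells with a transcript and less of it in each cannot be told apart. As the molecule is polyA RNA, a change in a transcript's amount and one in its polyadenylation cannot be told apart either. Both limits hold here and in all that follows.

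Among the subunits of the exchange complex, Eef1d had the deepest trough and Eef1b2 nearly none. Eef1d, an exchange factor, stood at 231, 223, 216 and 213 CPM in GV oocytes and at 3.42, 4.35, 3.56 and 5.18 CPM in MII oocytes, 43.6-fold lower on the log2(CPM + 1) scale. It then held 18.6, 17.6, 23.4 and 19.8 CPM in zygotes, 45.9, 49.7, 55.6 and 45.7 CPM at the 2-cell stage and 745, 645, 558 and 627 CPM at the 4-cell stage. Each of these 5 stages was apart from its neighbours in every library. Eef1d fell by 5.45 at maturation (SE 0.098, limma adjusted p = 1.32e-33) and then rose by 2.03 (SE 0.10, adjusted p = 2.20e-18), 1.27 (SE 0.12, adjusted p = 9.94e-12) and 3.68 (SE 0.15, adjusted p = 1.20e-22). The middle rise, from zygote to 2-cell, missed the change threshold of 1 under quantile normalization (0.97), edgeR (0.99) and DESeq2 (0.92). From the 4-cell stage to the morula the Eef1d libraries ranged from 528 to 745 CPM, and the blastocyst libraries lay lower, at 475, 463, 483 and 414 CPM, a change of -0.58 that was under the threshold (adjusted p = 7.91e-04).

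Eef1b2, the other exchange factor, held 59.7, 56.9, 54.1 and 52.6 CPM in GV oocytes and 50, 39.2, 41.2 and 40.3 CPM in MII oocytes. The GV and MII libraries did not overlap, but the change of -0.38 (limma adjusted p = 0.0012) was under the threshold. Zygotes held 68.3 ± 3.76 CPM and 2-cell embryos 56.6 ± 4.73 CPM (SD, n = 4). The called change came at the next step: 4-cell libraries held 245, 276, 389.7 and 250.5 CPM, all above every 2-cell library, a rise of 2.31 (SE 0.16, limma adjusted p = 6.93e-16). The morula, at 654 ± 61.4 CPM, stood highest. Its libraries lay above all blastocyst libraries (423 to 594 CPM), with a change of -0.35 that was under the threshold.

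Eef1g, the scaffold of the complex, was low up to the 2-cell stage and high from the 4-cell stage on. Its GV libraries held 14.4, 21.1, 16.9 and 16.7 CPM, its MII libraries 2.67, 2.29, 1.45 and 1.53 CPM, its zygote libraries 1.38, 1.8, 3.62 and 2 CPM and its 2-cell libraries 11.5, 10, 10.1 and 6.41 CPM. MII and zygote libraries overlapped and the other neighbours did not. At the 4-cell stage it reached 367, 325, 317 and 262 CPM. At maturation Eef1g fell by 2.62 on the log2 scale (SE 0.15, limma adjusted p = 3.90e-18), and it rose by 1.74 up to the 2-cell stage (SE 0.19, adjusted p = 2.69e-10) and by 4.94 up to the 4-cell stage (SE 0.24, adjusted p = 1.12e-20). Later stages lay higher still, with 589 ± 31.9 CPM in the morula and 738 ± 108 CPM in the blastocyst (SD, n = 4), and these 2 stages did not overlap.

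Eef2, the translocation factor, held 36.1, 37.8, 31.4 and 30.4 CPM in GV oocytes, 12.1, 8.97, 6.43 and 5.97 CPM in MII oocytes, 10.3, 10.2, 10.5 and 10.9 CPM in zygotes and 53, 30.2, 32.2 and 34.2 CPM in 2-cell embryos. The GV and 2-cell ranges overlapped each other and lay above those of MII oocytes and zygotes. The 4-cell libraries held 934, 775, 693 and 576 CPM and the blastocyst libraries 1567, 1352, 1568 and 1493 CPM. Eef2 fell by 1.94 at maturation (SE 0.13, limma adjusted p = 8.66e-16) and rose by 1.71 to the 2-cell stage (SE 0.17, adjusted p = 1.66e-11) and by 4.29 to the 4-cell stage (SE 0.21, adjusted p = 1.75e-20). From GV oocyte to blastocyst it rose by 5.42 (SE 0.15, limma adjusted p = 5.17e-29), beside rises of 5.34 for Eef1g (SE 0.17), 3.17 for Eef1b2 (SE 0.11), 2.34 for Eef1a1 (SE 0.13) and 1.05 for Eef1d (SE 0.11). That of Eef1d missed the threshold of 1 narrowly under quantile normalization, and under edgeR (0.75) and DESeq2 (0.69). In this comparison 69.1% of all genes were called, 38.3% as higher.

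Eef1e1 and Eefsec, which do not belong to the core cycle, did not rise from GV oocyte to blastocyst as the others did. The change of Eef1e1 over that span was -0.62, but it shared the fall at maturation and the rise to the 4-cell stage. Eef1e1 held 256, 249.6, 260.4 and 253 CPM in GV oocytes and 58.4, 70.8, 76.6 and 69.5 CPM in MII oocytes, a fall of 1.88 (SE 0.10, limma adjusted p = 2.35e-19). It stayed between 62.9 and 122 CPM through the 2-cell stage, where library F stood at 122 CPM and the others at 84.8, 85.7 and 85.6 CPM. It rose by 1.19 to 254, 208, 204 and 195 CPM at the 4-cell stage (SE 0.16, adjusted p = 1.17e-08). That rise was under the threshold with quantile normalization (0.87) and DESeq2 (0.93). From the morula (326 ± 52.2 CPM) to the blastocyst (190.0, 152, 163 and 159 CPM) the libraries did not overlap, and the change of -0.96 (adjusted p = 8.90e-07) lay just under the threshold. It was called with edgeR (-1.24), with DESeq2 (-1.19) and without blastocyst library A (-1.02), morula library A (-1.0) or morula library C (-1.05).

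Eefsec ran the other way from the 2-cell to the 4-cell stage. Its GV libraries held 48.8, 44.4, 43.1 and 43.8 CPM, its 2-cell libraries 24.3, 14.5, 16.5 and 16.9 CPM, its 4-cell libraries 11.1, 9.46, 11.5 and 8.71 CPM and its 8-cell libraries 4.87, 6.9, 5.17 and 2.83 CPM. The 4-cell libraries lay below all 2-cell libraries and above all 8-cell libraries. The step from 2-cell to 4-cell was -0.75 (SE 0.25, limma adjusted p = 0.0064), and was called with DESeq2 (-1.05). The step from 4-cell to 8-cell was -0.95 (SE 0.26, adjusted p = 0.032), and was called without 8-cell library B (-1.11), without 4-cell library D (-1.02) or with a pseudocount of 0.1 (-1.09). From the morula (5.87, 5.15, 7.91 and 6.3 CPM) to the blastocyst (24.2, 32.4, 20.7 and 24.8 CPM) Eefsec rose by 1.86 (SE 0.23, adjusted p = 1.80e-08), and no library overlapped. The GV to blastocyst change was -0.81 (adjusted p = 6.81e-05), and passed the threshold under quantile normalization (-1.05), edgeR (-1.13) and DESeq2 (-1.18).

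**Figure D1:**
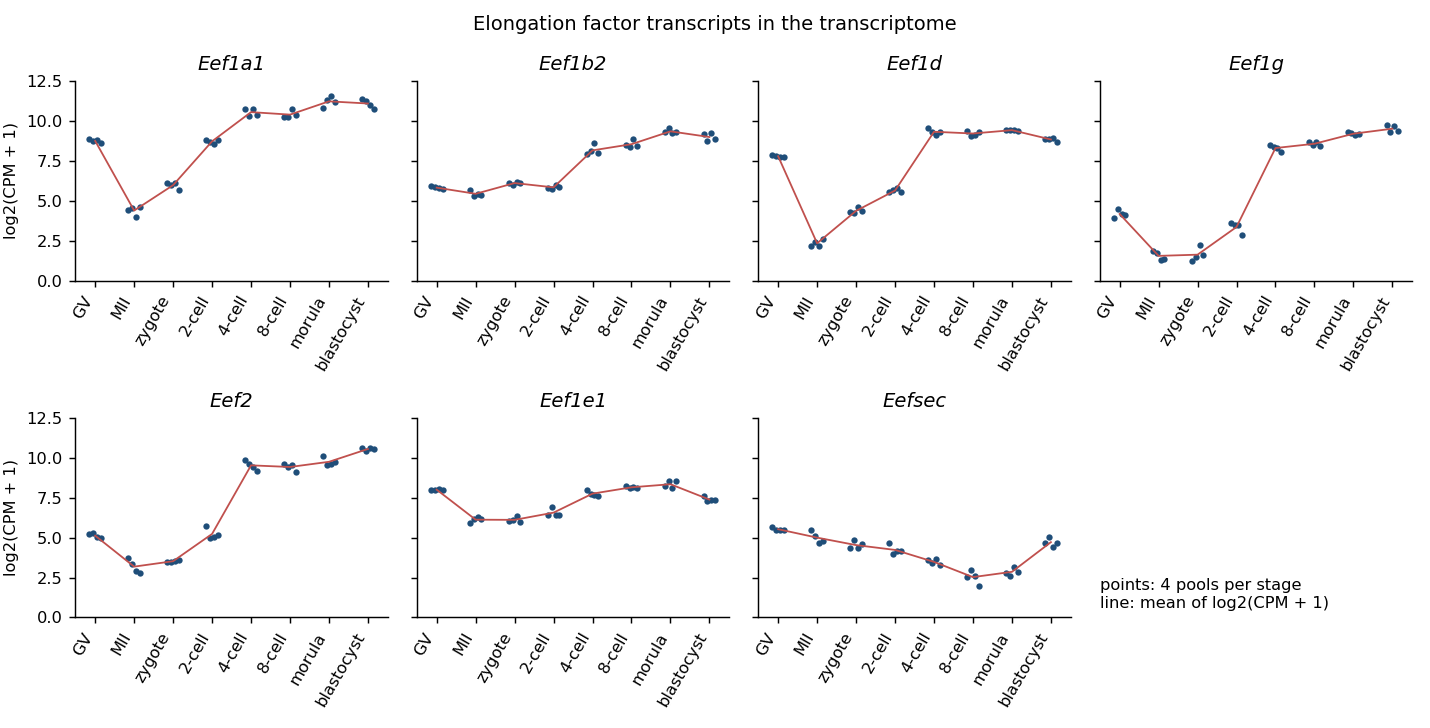
Transcriptome level of each gene as log2(CPM + 1) (vertical axis) at the 8 stages (horizontal axis); points are the 4 libraries of a stage and the line joins the stage means. The trough at the MII oocyte is deepest for Eef1d and Eef1a1, Eef1b2 stays between 39.2 and 71.7 CPM through the 2-cell stage, and Eefsec is lowest at the 8-cell stage.

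Counted over the genes, 5 of 7 fell from GV to MII, where 25.4% of all genes fell and 9.11% rose. From MII to zygote 2 of 7 rose, where 5.81% of all genes rose and 4.48% fell, and from the zygote on to the 2-cell stage 4 of 7 rose (25.2% of all genes rose, 8.71% fell). At the 4-cell stage 6 of 7 had risen, in a step at which 64.8% of all genes were called, 31.8% as higher and 32.9% as lower. The median change of the 7 genes was -1.94 from GV to MII, 0.33 to the zygote, 1.27 to the 2-cell stage and 2.31 to the 4-cell stage, beside medians over all genes of -0.11, 0.00, 0.37 and 0.017. From 4-cell to 8-cell limma called 0 of 7 (1.77% of all genes), with 3 at an unadjusted p under 0.05 and 0 called by edgeR or DESeq2. From 8-cell to morula it also called 0 of 7 (11.8% of all genes, 8.11% as higher and 3.64% as lower), again with 3 at an unadjusted p under 0.05 and 0 called by edgeR or DESeq2. From morula to blastocyst 1 of 7 rose (18.8% of all genes rose, 7.96% fell). All 18 calls between consecutive stages were kept when any 1 of the 32 libraries was left out, and 16 of them under every alternative tried.

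The ribosomal protein genes, the largest group of TOP transcripts, are shown beside them as a reference. Of 79, 68 fell from GV to MII (median -3.10), 15 rose and 3 fell to the zygote (median 0.42), 61 rose and 2 fell to the 2-cell stage (median 2.04), and 79 rose to the 4-cell stage (median 4.72). The median of the 7 elongation factor genes thus had the same sign as that of the ribosomal protein genes at these 4 steps, with a smaller size at each. Of 27 cofactors and enzymes that modify elongation factors or recycle ribosomes, 1 rose and 10 fell from GV to MII (median -0.28), 8 rose to the 2-cell stage (median 0.63), and 17 rose and 6 fell to the 4-cell stage (median 2.05). Of 10 synthetase complex partners of Eef1e1, 5 fell from GV to MII (median -1.06) and 8 rose from 2-cell to 4-cell (median 2.27).

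Between genes, levels were compared per kb of exon (the union of annotated exons in GENCODE M21). In GV oocytes Eef1a1 stood at 173 CPM per kb, Eef1e1 at 78.2, Eef1d at 34, Eef1b2 at 22.1, Eefsec at 16.1, Eef2 at 10.2 and Eef1g at 6.64. In MII oocytes Eef1e1 (21.1) and Eef1b2 (16.9) stood above Eefsec (11.3) and Eef1a1 (8.17), and Eef1g (0.764) and Eef1d (0.636) were lowest. In blastocysts the order was Eef1a1 (886), Eef2 (449.8), Eef1g (284), Eef1b2 (203), Eef1d (70.7), Eef1e1 (51) and Eefsec (9.12). Eef1d has many annotated transcripts and a long exon union, which lowers its value per kb. The table also holds 2 pseudogene rows, Eef1a1-ps1 and Eef2-ps2, which reached at most 2.41 and 5.92 CPM in a transcriptome library. How reads shared with such copies were assigned is not given in the sources used here, so the levels of Eef1a1 and Eef2 carry that uncertainty.

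Across the 32 transcriptome libraries, Eef1g and Eef2 followed each other most closely among the 7 genes (Pearson r = 0.99 of log2(CPM + 1)), and Eefsec had a negative r with each of the other 6 (-0.68 to -0.51). The libraries of one stage share that stage, so these values describe 8 stages rather than 32 independent points. Of 8004 genes searched, those most like Eef1g were Rps18 (r = 0.995), which encodes a ribosomal protein, and the predicted gene Gm10275 (0.994). Those most like Eef2 were Rpl8 (0.994) and Mrpl43 (0.993), for a cytosolic and a mitochondrial ribosomal protein. Eef1d was most like Naca (0.99), for a subunit of the nascent polypeptide-associated complex, and Chchd2 (0.989). Eef1a1 was most like Bloc1s2 (0.99) and Prdx5 (0.987), Eef1b2 like Prelid2 (0.986) and Eprn (0.983), Eef1e1 like Tyms (0.960) and Prdx3 (0.950), and Eefsec like Paox (0.939) and Fip1l1 (0.938).

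In the gradients, transcripts that carry more ribosomes sediment further. The labels only number the fractions, and fractions 6 to 10 were taken as the heavy, ribosome-bound side and fractions 1 to 5 as the light side by convention. The level on a side is the mean CPM over its 5 fractions in a gradient, and a CPM in a fraction is a share of that fraction's reads alone. From GV to MII the heavy level of Eef1a1 went from 285, 302 and 222 CPM to 34.8, 29.1 and 41.7 CPM in gradients A to C, that of Eef1d from 266, 267 and 171 CPM to 31, 23.8 and 50.6 CPM, and that of Eef1g from 61.8, 51.4 and 56.7 CPM to 7.28, 13.9 and 12 CPM. Eef1e1 went from 64.1, 62.7 and 101 CPM to 18.8, 22.6 and 24.6 CPM. Eefsec went from 173, 132 and 148 CPM up to 438, 543 and 416 CPM. None of these pairs of stages overlapped.

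Eef1d fell by 2.74 (SE 0.29, limma adjusted p = 9.79e-07), Eef1a1 by 2.90 (SE 0.33, adjusted p = 1.82e-06), Eef1g by 2.30 (SE 0.48, adjusted p = 0.0015) and Eef1e1 by 1.71 (SE 0.36, adjusted p = 0.0019) in the heavy fractions, and Eefsec rose by 1.62 (SE 0.38, adjusted p = 0.0044). These are 4 falls and 1 rise of 7, beside 13.6% and 4.15% of all genes. With equal weights for all gradients, Eef1g (limma adjusted p = 0.34), Eef1e1 (adjusted p = 0.19) and Eefsec (adjusted p = 0.13) were not called. Neither were they with edgeR on recovered reads (0.79, 0.67 and 0.21), and DESeq2 did not call Eef1g (0.61) or Eef1e1 (0.47). Eef2 went from 367, 227 and 251 CPM to 106, 141 and 200.1 CPM, a change of -0.93 (adjusted p = 0.024) that was called without GV gradient B (-1.07) or without MII gradient C (-1.16). Eef1b2 overlapped between the stages (21.2 to 41.7 CPM and 15.2 to 48.4 CPM).

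At fertilization the heavy level of Eef1d went to 84.6, 130.2 and 51.5 CPM in the zygote, above the MII gradients, a rise of 1.28 (SE 0.33, limma adjusted p = 0.022), and 1 of 7 genes was called, beside 6.15% of all genes (3.71% higher, 2.44% lower). The call was lost under 6 of 12 alternatives, and without MII gradient A (1.23, adjusted p = 0.073), MII gradient B (1.04, adjusted p = 0.12), zygote gradient A (1.27, adjusted p = 0.088) or zygote gradient B (0.96, adjusted p = 0.15). The heavy fractions of Eefsec held 322, 676 and 247 CPM in the zygote and those of Eef2 held 242, 311 and 152 CPM, both overlapping the MII values.

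From zygote to 2-cell, 1 of 7 rose and 1 fell in the heavy fractions, beside 3.15% and 8.46% of all genes. Eef1a1 went from 48.6, 66.9 and 51.8 CPM to 327, 347 and 362 CPM, a rise of 2.62 (SE 0.64, limma adjusted p = 0.0085). The groups lay far apart, but the call was lost narrowly without 2-cell gradient B (2.62, adjusted p = 0.051) or C (2.59, adjusted p = 0.053). Eef1e1 went from 44.7, 33.6 and 20.3 CPM to 2.76, 5.06 and 0.0319 CPM, and fell by 3.5 on the log2 scale (SE 0.71, limma adjusted p = 0.0022), a call that was lost when only these groups were fitted (adjusted p = 0.053). In the same step the Eef1e1 transcriptome libraries lay higher at the 2-cell stage (84.8 to 122 CPM) than in the zygote (62.9 to 79.3 CPM). At the 2-cell stage, 13 of the 30 fraction values of Eef1e1 and 20 of the 30 of Eef1g were 0. The share of this fall that goes with those zeros was not tested. Eef1g held 0, 22.7 and 0.447 CPM on the heavy side, a change of -2.44 (adjusted p = 0.094) that was called without 2-cell gradient B (-3.87).

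From 2-cell to 4-cell, 2 of 7 rose in the heavy fractions, beside 7.56% of all genes. Eef1e1 reached 16.9, 154 and 87.4 CPM, a rise of 4.45 (SE 0.96, limma adjusted p = 0.0022), called under every alternative and every omission tried. Eef1g reached 7.65, 284 and 514 CPM, a rise of 5.06 (SE 1.26, limma adjusted p = 0.0067), although gradient A lay within the 2-cell range. That rise was lost without 4-cell gradient B (4.36, adjusted p = 0.065) or C (3.94, adjusted p = 0.073), and when only these groups were fitted (adjusted p = 0.096). Eef2 reached 878, 1066 and 1364 CPM from 298, 238 and 231 CPM, and Eef1d reached 161, 295 and 288 CPM from 70.1, 70.8 and 31.9 CPM. Both pairs were apart, and limma did not call them (changes of 2.09 and 2.12, adjusted p = 0.056 and 0.06). Both were called with edgeR (2.51, adjusted p = 9.44e-05, and 2.21, adjusted p = 0.0027), DESeq2 (2.43, adjusted p = 4.63e-07, and 2.03, adjusted p = 3.41e-04), equal weights (limma adjusted p = 2.91e-05 and 2.88e-04) and quantile normalization (limma adjusted p = 0.049 and 0.045). Without 4-cell gradient A both were called (2.24 and 2.41), and with the replicate block by letter Eef2 was (adjusted p = 0.049). Eefsec went the other way, from 159, 87.8 and 97.5 CPM to 8, 43.9 and 12.3 CPM without overlap, a change of -2.68 (limma adjusted p = 0.07). That change was called with edgeR (-2.28, adjusted p = 0.0078), DESeq2 (-2.54, adjusted p = 2.31e-05) and equal weights (limma adjusted p = 7.22e-04). The heavy level of Eef1a1 was lower at the 4-cell stage in every gradient (244, 39.5 and 163 CPM), a change of -1.56 with a 95% interval of -3.25 to 0.13 that was called with equal weights (limma adjusted p = 0.023).

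Later steps changed Eefsec, and the other 6 genes gave no call between consecutive stages. From 4-cell to 8-cell limma called 0 of 7 (0.482% of all genes), with 1 gene, Eef1g, at an unadjusted p under 0.05 and 0 called by edgeR or DESeq2. Eefsec went from 43.6, 50.8 and 42.5 CPM at the 8-cell stage to 4.76, 16.7 and 20.4 CPM in the morula and 31, 40.6 and 42.2 CPM in the blastocyst, without overlap at either step. It fell by 1.85 (SE 0.55, limma adjusted p = 0.034) and rose by 1.57 (SE 0.34, limma adjusted p = 0.012), 1 of 7 genes at each step. Of all genes 10.6% were called at the first of these steps (3.83% lower) and 3.44% at the second (1.81% higher, 1.63% lower). The fall was lost without 8-cell gradient A (-1.87, adjusted p = 0.089), B (-1.77, adjusted p = 0.11) or C (-1.89, adjusted p = 0.12), without morula gradient A (-1.26, adjusted p = 0.076), with the mean of log2 over fractions (-0.49) and with edgeR (adjusted p = 0.11). The rise was lost without morula gradient A (0.99, adjusted p = 0.064), with equal weights (adjusted p = 0.68), with edgeR (adjusted p = 0.69) and with DESeq2 (adjusted p = 0.12). Eef1a1 held 176, 587 and 154 CPM at the 8-cell stage, 551, 655 and 698 CPM in the morula and 1141, 749.6 and 1452 CPM in the blastocyst. Its steps of 1.32 (adjusted p = 0.077) and 0.77 (adjusted p = 0.17) were called only without 8-cell gradient B (1.93) and only without blastocyst gradient B (1.03).

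**Figure D2:**
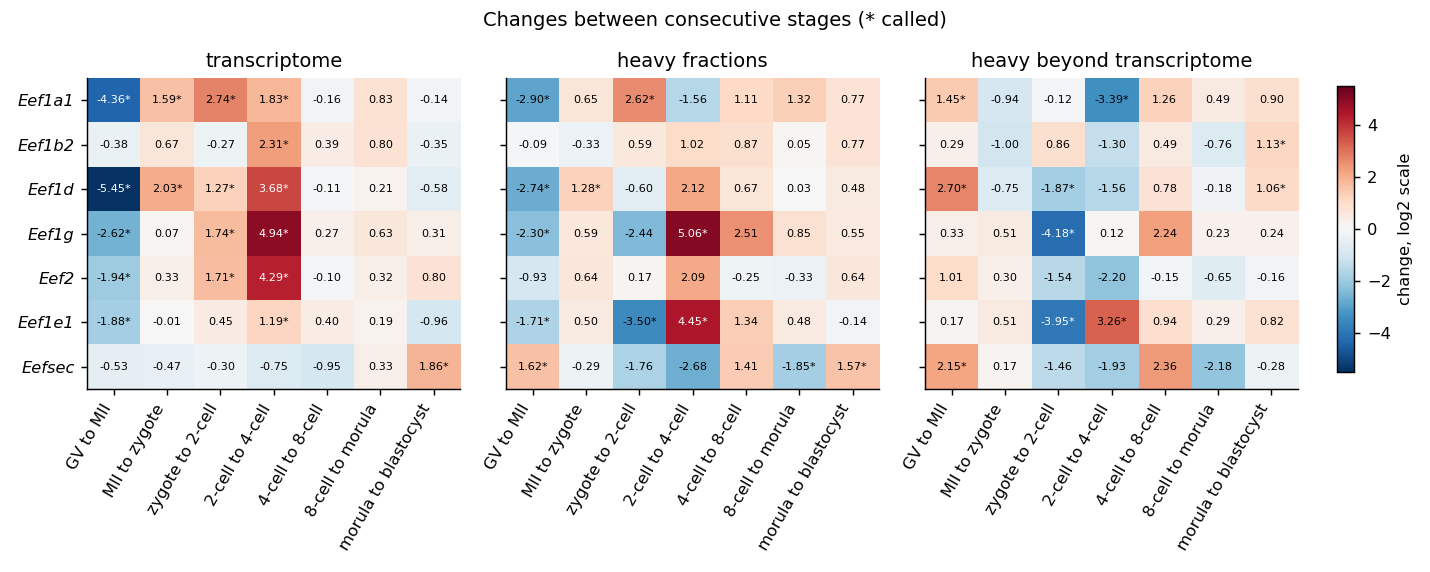
Change between consecutive stages on the log2 scale (cell labels and colour) for each gene in the transcriptome, in the heavy fractions and in the heavy fractions beyond the transcriptome; stars mark calls at a limma adjusted p under 0.05 and a change of at least 1. Transcriptome calls lie in the first 4 steps except for the rise of Eefsec to the blastocyst, and Eefsec is the gene with a called heavy-fraction rise (1.62) from GV to MII.

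Across the whole series, from GV oocyte to blastocyst, all 7 genes were called in the heavy fractions, 6 higher and 1 lower, beside 27.6% and 40.4% of all genes. Eef1g went from 51.4 to 61.8 CPM up to 1456, 1829 and 1633 CPM, a rise of 4.83 (SE 0.37, limma adjusted p = 1.10e-10). Eef1b2 rose by 2.87 to 246, 221 and 227 CPM (adjusted p = 9.20e-09), Eef2 by 2.03 (adjusted p = 2.98e-08), Eef1a1 by 2.00 (adjusted p = 3.29e-07) and Eef1d by 1.23 (adjusted p = 5.01e-05), all with limma. Eefsec fell by 1.97 (adjusted p = 3.85e-06, limma), from 132 to 173 CPM down to 31 to 42.2 CPM. Eef1e1 rose by 1.42 (limma adjusted p = 1.19e-04), and was not called with equal weights (adjusted p = 0.089), edgeR (adjusted p = 0.16) or DESeq2 (adjusted p = 0.082). Of the 79 ribosomal protein genes, 77 rose in this comparison (median 3.41, beside -0.44 over all genes).

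Along the gradient the genes differed in which fractions held their highest levels. In limma the heavy-minus-light difference changed for Eef1d and Eefsec from GV oocyte to blastocyst. No gene was called for such a change between consecutive stages. Eef2 was higher on the light side throughout. Its light level exceeded its heavy level in 3 of 3 gradients at each of the 8 stages, and the sides did not overlap at 7 of them, the blastocyst being the exception. In MII oocytes its light side held 345, 339 and 348 CPM and its heavy side 106, 141 and 200.1 CPM, a difference of -1.25 (SE 0.24, limma adjusted p = 1.74e-04) that was called under every alternative and omission (-1.51 to -1.03). At the GV, zygote, morula and blastocyst stages the difference was -0.81, -0.85, -0.91 and -0.58, with limma adjusted p of 0.041, 0.014, 0.037 and 0.027, all under the change threshold of 1, and the zygote difference passed it without zygote gradient A (-1.02). Its peak lay in fraction 3 in all gradients of the MII oocyte (765, 581 and 709 CPM), the zygote and the blastocyst (2719, 3034 and 3907 CPM). Blastocyst fraction 10 was also high, with 1216, 2578 and 2479 CPM beside 606, 880.4 and 946 CPM in fraction 8. As a single number, the CPM-weighted mean fraction of Eef2 ran from 4.70 to 5.21 over the stage means, below the median of all genes at each stage (5.12 to 5.90).

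Eefsec, too, was richest near the top of the gradient in oocytes and early embryos, while in the blastocyst its highest fraction was at the bottom. In MII oocytes fraction 2 held 1707, 2093 and 1658 CPM and fraction 10 held 379.6, 324 and 261 CPM. The light level was 991, 1065 and 1081 CPM and the heavy level 438, 543 and 416 CPM, a difference of -1.17 (SE 0.40, limma adjusted p = 0.039). This call was lost without any 1 of the MII gradients (adjusted p = 0.13 without A, adjusted p = 0.17 without B, adjusted p = 0.18 without C) and under 6 of 13 alternatives, edgeR (adjusted p = 0.43) and equal weights (limma adjusted p = 0.49) among them, while the sides did not overlap. In zygotes the light level was 768, 1097 and 901 CPM against 322, 676 and 247 CPM on the heavy side, a difference of -1.27 (SE 0.42, limma adjusted p = 0.032), lost without zygote gradient A (-1.28, adjusted p = 0.15) or C (-0.97, adjusted p = 0.28), with edgeR (adjusted p = 0.44) and with equal weights (limma adjusted p = 0.42). In blastocysts the highest fraction was fraction 10 in all 3 gradients (60.2, 109 and 56 CPM), and the weighted mean fraction was 6.50 ± 0.36 (SD, n = 3) against 4.37 ± 0.11 in MII oocytes. The blastocyst sides overlapped, with 31, 40.6 and 42.2 CPM on the heavy side and 20.1, 40.8 and 15.1 CPM on the light side. Their difference of 0.67 was not called (limma adjusted p = 0.15). The heavy-minus-light difference changed by 1.49 from GV oocyte to blastocyst (SE 0.52, limma adjusted p = 0.045). This call was lost without GV gradient A (1.52), B (1.55) or C (1.4) and without blastocyst gradient A (1.53) or C (1.12).

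The heavy-minus-light difference of Eef1d changed in the same direction. In GV oocytes its light side held 327, 414 and 318 CPM and its heavy side 266, 267 and 171 CPM, with the peak in fraction 2 in all gradients (745, 839.9 and 489.6 CPM). In blastocysts its light side held 239, 301 and 271 CPM and its heavy side 483, 567 and 579 CPM, with the peak in fraction 9 (741, 732 and 946 CPM). Neither pair of sides overlapped, and the order was opposite. The blastocyst difference was 1.01 (SE 0.23, limma adjusted p = 0.0012), which slipped under the change threshold without blastocyst gradient C (0.96). The call was kept under 7 of 13 alternatives, and lost with edgeR (adjusted p = 0.55), equal weights (limma adjusted p = 0.32), the mean of log2 over fractions (limma adjusted p = 0.11) and quantile normalization (0.68), among others. The GV difference was -0.61 (adjusted p = 0.26), and the change between the stages was 1.61 (SE 0.36, limma adjusted p = 0.0019). The heavy side also lay above the light side without overlap at the 2-cell, 8-cell and morula stages. At the 8-cell stage the difference of 1.29 (adjusted p = 0.19) was called once each gradient entered as a replicate block (limma adjusted p = 0.035).

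The scaffold Eef1g had a higher light side in the MII oocyte and the zygote and a higher heavy side from the 8-cell stage onwards, each without overlap. In zygotes the light level was 53.5, 34.2 and 38.1 CPM and the heavy level 12.6, 32.9 and 10.9 CPM, a difference of -1.26 (SE 0.41, limma adjusted p = 0.032) that was lost without zygote gradient A (-0.89, adjusted p = 0.36) or C (-1.03, adjusted p = 0.23), with edgeR (adjusted p = 0.87) and with equal weights (limma adjusted p = 0.62). In blastocysts fraction 10 held 2651, 3026 and 3176 CPM and fraction 1 held 512, 629 and 874 CPM. At the 2-cell stage the difference was -2.94 (limma adjusted p = 0.069), and -4.19 without 2-cell gradient B, where it was called (limma adjusted p = 0.046). The blastocyst difference between the sides was 0.93 (limma adjusted p = 0.036), under the change threshold, with no overlap. For its partner Eef1b2 the blastocyst difference was -0.28 and was not called (limma adjusted p = 0.53). The light levels of Eef1b2 (247 to 300.2 CPM) lay just above its heavy levels (221 to 246 CPM) without overlap. Its weighted mean fraction was 5.20 ± 0.04 (SD, n = 3) beside 6.73 ± 0.14 for Eef1g and 6.66 ± 0.10 for Eef1d.

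Eef1a1 had its highest fraction at the bottom of every gradient at the 2-cell stage, where fraction 10 held 859, 864 and 591 CPM. Fraction 10 was also the highest in the morula (1174, 1399 and 1686 CPM), where fraction 3 (mean 894 CPM) stood above fraction 6 (mean 293 CPM). The morula sides overlapped (heavy 551 to 698 CPM, light 434 to 717 CPM), with the heavy side higher in 1 of 3 gradients. In blastocysts the sides overlapped too, with the heavy side higher in 0 of 3 gradients. In GV oocytes Eef1a1 peaked in fraction 10 in gradients A and C and in fraction 3 in gradient B. In all 3 MII gradients Eef1a1 peaked in fraction 3. Its sides differed by -0.97 in MII oocytes (limma adjusted p = 0.031, heavy 29.1 to 41.7 CPM, light 53.1 to 80.1 CPM), close under the threshold. Eef1e1 lay on the light side at the 2-cell stage, with 19, 24.2 and 27.4 CPM against 2.76, 5.06 and 0.0319 CPM, a difference of -3.08 (SE 0.82, limma adjusted p = 0.027) that was lost without 2-cell gradient A (-3.42, adjusted p = 0.077), B (-3.59, adjusted p = 0.08) or C (-2.23, adjusted p = 0.33). At this stage edgeR also called Eef2 (-1.61, adjusted p = 6.90e-04), Eefsec (-2.0, adjusted p = 0.03) and Eef1d (1.92, adjusted p = 0.0083), which limma did not call (-1.29, -1.86 and 1.61). In all, 6 of 56 pairs of gene and stage were called. They were 2 of 7 in MII oocytes and 2 of 7 in zygotes, all lower on the heavy side (6.31% and 4.93% of all genes), 1 of 7 lower at the 2-cell stage (1.94%) and 1 of 7 higher in blastocysts (7.35%).

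Limma called 0 of 7 genes at the GV, 4-cell, 8-cell and morula stages, beside 3.96% (3.09% higher), 0.738%, 5.06% and 11.4% of all genes. At an unadjusted p under 0.05 there were 3, 0, 2 and 2 genes, and edgeR called 0, 2 (Eef1b2 and Eefsec), 1 (Eef2) and 0. The ribosomal protein genes had median weighted mean fractions of 4.90 in GV oocytes, 3.95 in MII oocytes, 6.18 at the 4-cell stage and 4.95 in blastocysts. In MII oocytes 32 of 79 of them were lower on the heavy side (median -0.91, beside -0.056 over all genes), and in blastocysts 18 were lower and 1 higher (median -0.36).

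**Figure D3:**
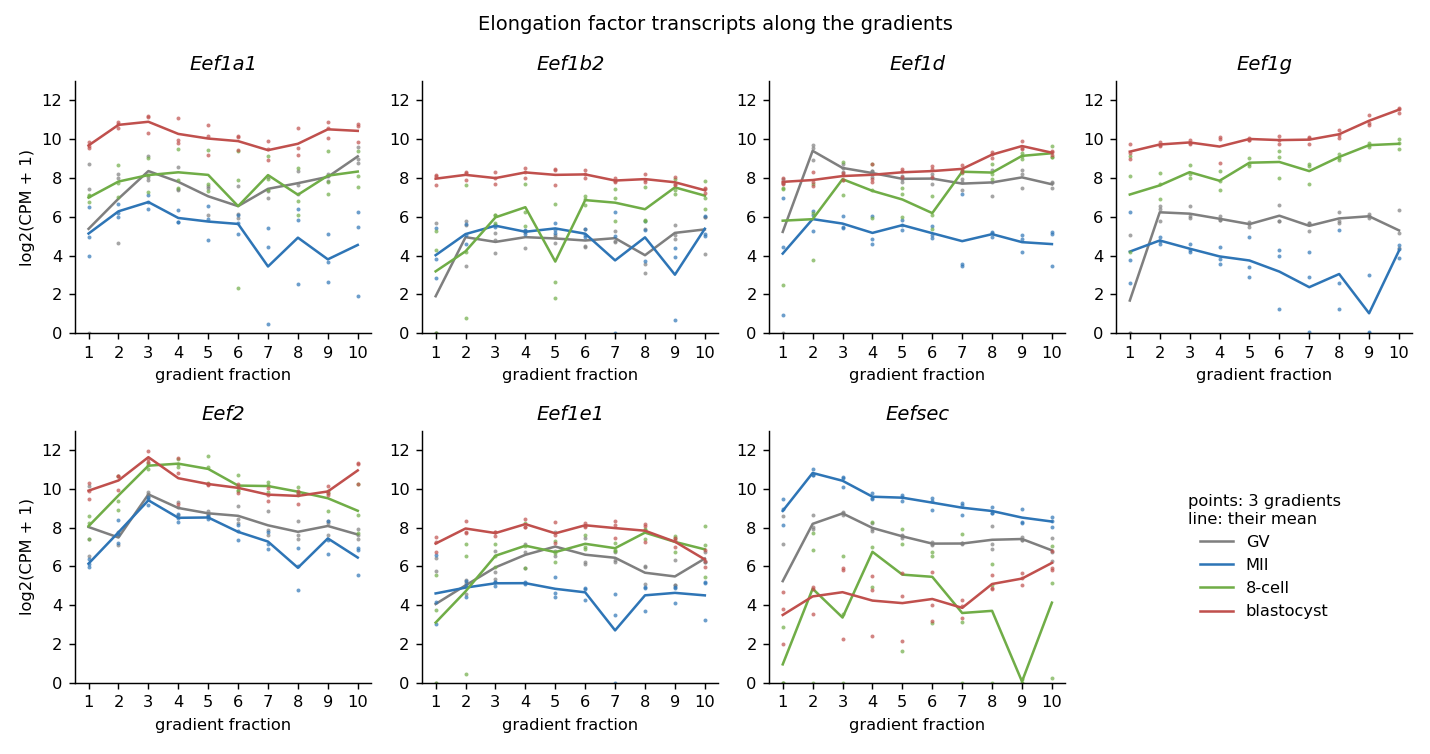
Level of each gene as log2(CPM + 1) (vertical axis) along the 10 gradient fractions (horizontal axis) in GV oocytes, MII oocytes, 8-cell embryos and blastocysts. Eefsec peaks in fraction 2 in MII oocytes and in fraction 10 in blastocysts, while Eef2 peaks in fraction 3 in the MII oocyte and the blastocyst.

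**Figure D4:**
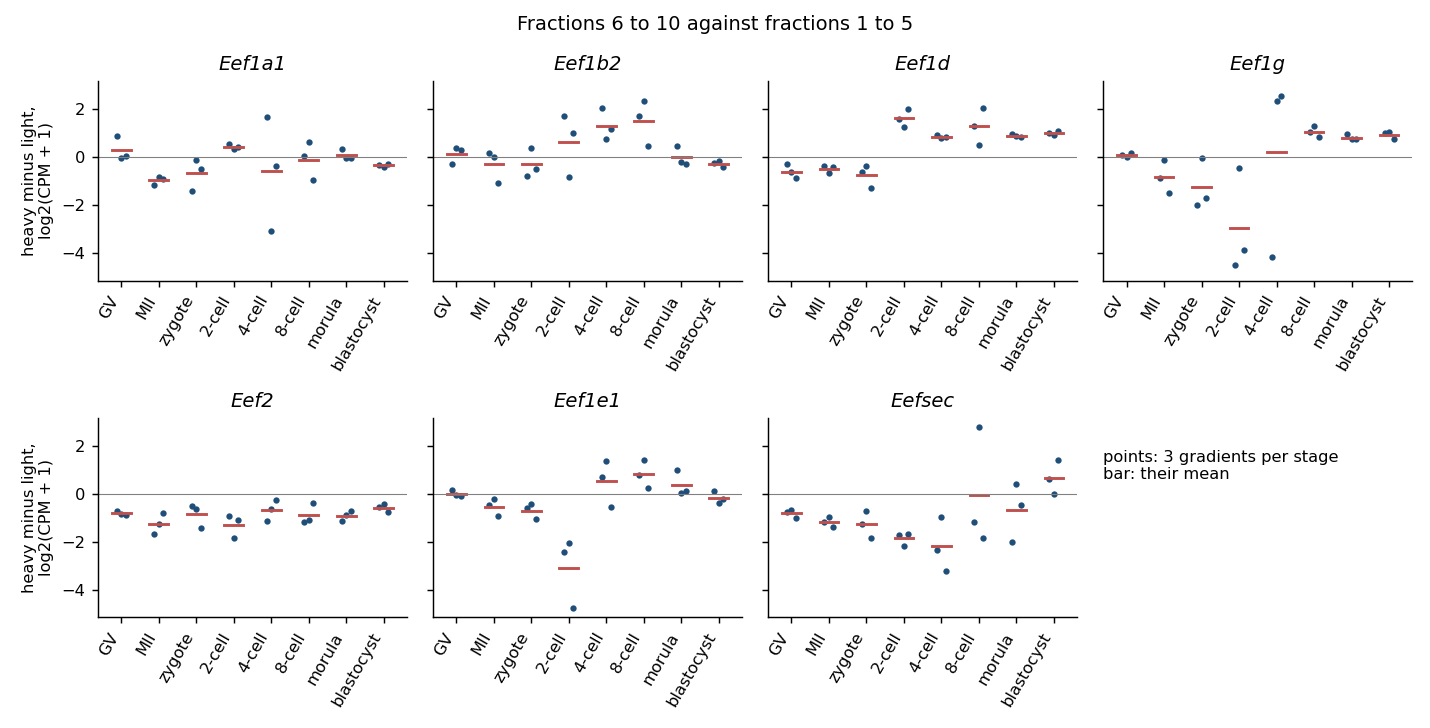
Heavy level (fractions 6 to 10) minus light level (fractions 1 to 5) on the log2(CPM + 1) scale (vertical axis) at the 8 stages (horizontal axis); points are the 3 gradients and bars their mean. Every point of Eef2 is below 0, Eef1d is below 0 up to the zygote and above 0 from the 2-cell stage, and the 4-cell points of Eef1g are the widest apart.

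Whether the heavy fractions changed by more or less than the transcriptome was tested as an interaction. From GV to MII 3 of 7 genes were called, all higher, beside 12.3% of all genes. The heavy level of Eefsec rose while its transcriptome step was -0.53, a difference of 2.15 (SE 0.45, limma adjusted p = 3.14e-04). Eef1d and Eef1a1 fell in both, and less so in the heavy fractions, by 2.70 (SE 0.30, limma adjusted p = 7.84e-10) and 1.45 (SE 0.36, limma adjusted p = 0.0024). Mean light levels moved the same way, from 268 to 1046 CPM for Eefsec and from 353 to 48.9 CPM for Eef1d. That of Eef1a1 went from 224 to 70.6 CPM. A light-side change beyond the transcriptome was not tested, so these calls cannot be read as particular to the heavy side. The calls of Eefsec and Eef1d were kept under every alternative and omission. That of Eef1a1 was lost with fractions 7 to 10 as heavy (1.08), with the mean of log2 over fractions (1.05) and with edgeR (1.25). Eef2 had a difference of 1.01 (adjusted p = 0.057) that was called with the replicate block by letter, without GV gradient A (1.22) or MII gradient A (1.23), and without transcriptome library D of the GV stage (1.06) or A (1.19) or B (1.06) of the MII stage. Of the 79 ribosomal protein genes 59 were called higher here (median 2.30, beside 0.025 over all genes).

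From zygote to 2-cell 3 of 7 were called lower, beside 8.47% of all genes, and the median over all genes was itself -0.89. The difference was -3.95 for Eef1e1 (SE 0.64, limma adjusted p = 8.48e-05), which was kept throughout, and -4.18 for Eef1g (SE 0.94, limma adjusted p = 0.0029), which was lost without 2-cell gradient A (-3.33, adjusted p = 0.056), with quantile normalization (-2.57, adjusted p = 0.072) and with edgeR (adjusted p = 0.22). It was -1.87 for Eef1d (SE 0.58, limma adjusted p = 0.033), lost without zygote gradient A (adjusted p = 0.057) or B (adjusted p = 0.098) or without 2-cell gradient A (adjusted p = 0.063), B (adjusted p = 0.08) or C (adjusted p = 0.22), with quantile normalization (adjusted p = 0.13) and with edgeR (adjusted p = 0.078). From 2-cell to 4-cell Eef1e1 was called higher (3.26, SE 0.87, limma adjusted p = 0.026) and Eef1a1 lower (-3.39, SE 0.94, limma adjusted p = 0.034), 1 of 7 each way beside 0.844% and 1.73% of all genes. Eef1e1 lost its call without 2-cell gradient C (adjusted p = 0.18) or 4-cell gradient B (adjusted p = 0.24) or C (adjusted p = 0.11). Eef1a1 lost its call without 2-cell gradient A (adjusted p = 0.062), B (adjusted p = 0.09) or C (adjusted p = 0.091), or without 4-cell gradient B (-2.62, adjusted p = 0.3) or C (adjusted p = 0.068). Mean light levels from zygote to 2-cell went from 52.4 to 23.5 CPM for Eef1e1 and from 41.9 to 24.4 CPM for Eef1g. That of Eef1d went from 142 to 19.7 CPM, beside 88.8 to 57.6 CPM on its heavy side. From 2-cell to 4-cell the light level of Eef1a1 went from 257 to 211 CPM and that of Eef1e1 from 23.5 to 65.3 CPM. As a light-side change beyond the transcriptome was not tested, the calls at these steps cannot be read as particular to the heavy side.

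From morula to blastocyst Eef1b2 (1.13, SE 0.34, limma adjusted p = 0.028) and Eef1d (1.06, SE 0.30, limma adjusted p = 0.016) were called higher, 2 of 7 beside 2.04% of all genes. The call of Eef1b2 was lost without morula gradient B (adjusted p = 0.13) or C (adjusted p = 0.2), without blastocyst gradient A (adjusted p = 0.071) and without morula transcriptome library B (adjusted p = 0.051), and that of Eef1d without morula gradient C (adjusted p = 0.12). Of 11 alternatives, 5 kept the call of Eef1b2 and 7 that of Eef1d. Both were lost with edgeR (adjusted p = 0.28 and 0.15), equal weights (limma adjusted p = 0.27 and 0.12), quantile normalization (limma adjusted p = 0.14 and 0.089) and the mean of log2 over fractions (limma adjusted p = 0.081 and 0.063). Eef1a1 (0.90, limma adjusted p = 0.11) was called without blastocyst gradient B (1.16). Over the whole span, from GV oocyte to blastocyst, 1 of 7 was called higher and 2 lower, beside 13.7% and 33.9% of all genes. Eef2 had the largest difference of the 7, -3.39 (SE 0.32, limma adjusted p = 7.42e-13), its rise in the heavy fractions being 2.03 and that in the transcriptome 5.42. Eef1e1 had 2.04 (limma adjusted p = 2.18e-08) and Eefsec -1.16 (limma adjusted p = 0.0084). The mean light level of Eef2 also went up, from 489.7 to 1738 CPM, beside 282 to 1152 CPM on the heavy side. Its mean over all fractions was 11.4 times the transcriptome level in GV oocytes and 0.967 times in blastocysts. A light-side change beyond the transcriptome was not tested here either. These calls thus cannot be read as particular to the heavy side. The call of Eefsec was lost with equal weights (adjusted p = 0.11), quantile normalization (-0.60) and edgeR (-0.58).

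In the 3 steps from MII to zygote, 4-cell to 8-cell and 8-cell to morula limma called 0 of 7, beside 3.41%, 0.646% and 3.28% of all genes. At an unadjusted p under 0.05 there were 3, 2 and 1 genes, and edgeR called 0, 0 and 1. That 1 was Eefsec from 8-cell to morula, where limma gave a difference of -2.18 (adjusted p = 0.057). It was called in limma with the replicate block by letter (adjusted p = 0.048), without morula gradient C (-2.54) and without 8-cell transcriptome library B (-2.33). From MII to zygote Eef1b2 was called without MII gradient C (-1.44, limma adjusted p = 0.033).

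The pools and the gradients of a stage could hold very different shares of a transcript. In MII oocytes Eef2 averaged 247 ± 24.9 CPM over the 10 fractions (SD, n = 3 gradients) and 8.38 ± 2.83 CPM in the transcriptome (SD, n = 4), a ratio of 29.4. The ratio was 11.4 in GV oocytes, 30.9 in zygotes and 12 at the 2-cell stage, then 1.9 at the 4-cell stage and 0.967 in blastocysts, where the ranges overlapped. Eefsec had a ratio of 4.66 in GV oocytes, 23.9 in MII oocytes (756 ± 45.1 against 31.6 ± 8.35 CPM), 29.9 in zygotes, 14.7 at the 2-cell stage and 1.24 in blastocysts, again with overlap. Eef1d (10.2) and Eef1g (8.2) were also higher in the MII gradients than in the MII pools.

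Eef1a1, Eef1b2 and Eef1e1 lay mostly on the other side of 1. At the 4-cell stage the fractions held 0.118 of the pool level of Eef1a1, 0.174 of that of Eef1b2 and 0.352 of that of Eef1e1, all without overlap. Eef1d was below 1 from the 2-cell stage on, with 0.301 at the 4-cell stage, also without overlap. Its ranges overlapped at the 2-cell stage (0.785) and in blastocysts (0.887). In MII oocytes the fractions of Eef1a1 exceeded the pools 2.6-fold. Because each library was scaled to its own total, such a ratio compares shares of what each library contained.

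**Figure D5:**
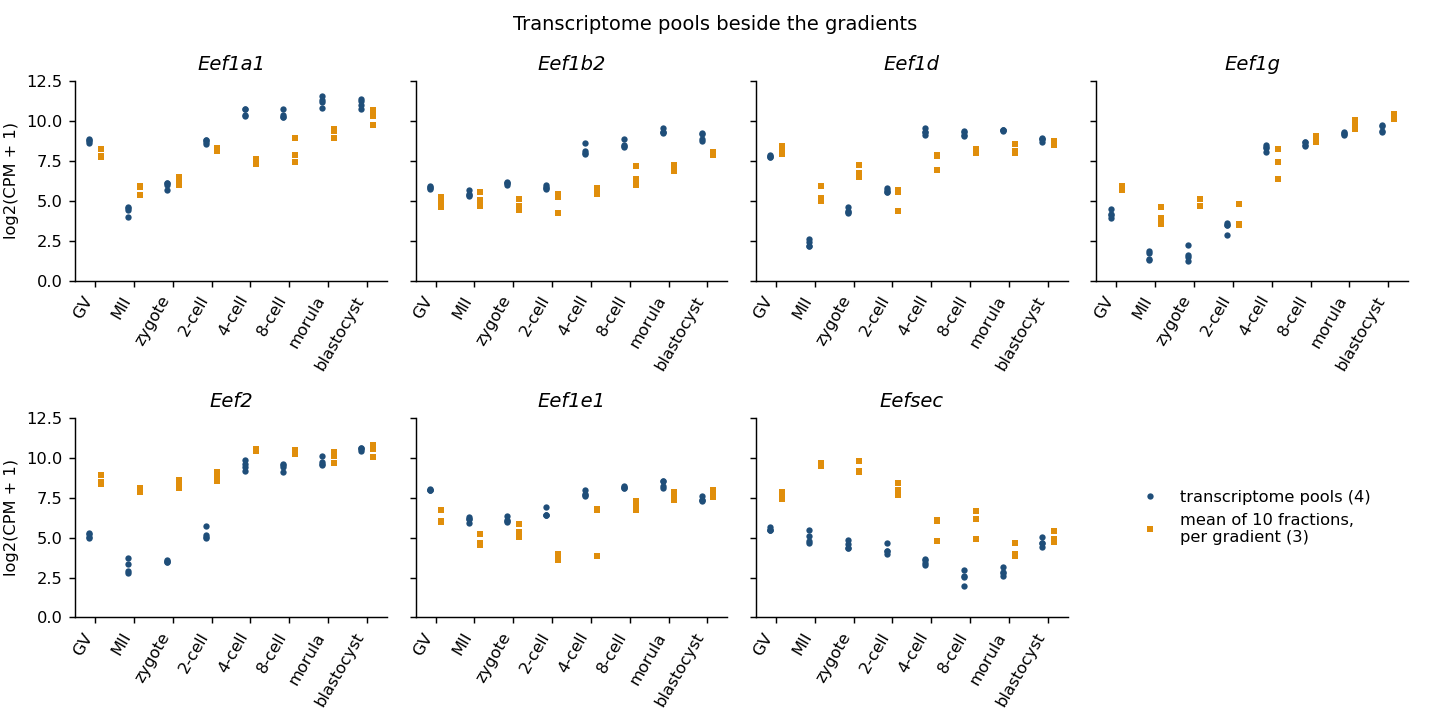
Level of each gene as log2(CPM + 1) (vertical axis) in the transcriptome pools and as the mean over the 10 fractions of each gradient, at the 8 stages (horizontal axis). The 2 kinds of library lie far apart for Eef2 and Eefsec from the GV oocyte to the 2-cell stage and overlap for both in the blastocyst.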

How the data were processed

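The authors deposited 1 table of gene levels as CPM, counts of reads per gene divided by a library total, for 272 libraries. The submitters' processing notes name Trim Galore 0.6.7, FastQC, HISAT2 2.2.1, featureCounts 2.0.1, edgeR and GRCm39, without their order, and the annotation is not given in the sources used here. In 271 columns the deposited values were whole multiples of 1 read's worth (100% of values within 0.05 of a whole read). In 9 of the columns the deposited values were recorded as signal, with the same scaling as CPM, because repeated symbols took their sums above 1 M. Symbols whose values were identical in all libraries (76 groups of 159 symbols) were counted once, which left 15771 symbols and column sums of 0.7913 to 0.989 M.

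CPM were put on the log2 scale, log2(CPM + 1), from the values the authors deposited. The main test was limma 3.58.1 in R 4.3.3 with array weights per group and a mean-variance trend, on genes with a CPM of at least 1 in at least 4 (transcriptomes) or 3 (other) samples. Called means a Benjamini-Hochberg adjusted p under 0.05 over all genes tested and a change of at least 1. All stages entered 1 fit. Changes on this scale understate those of low genes. Alternatives were other pseudocounts, no filter, equal weights, quantile normalization, other fraction limits, replicate blocks, each library left out, and edgeR 4.0.16 and DESeq2 1.42.0 on recovered reads. The fitting code was tested on simulated data. The genes and lists were chosen with earlier results of these data known. The text names all 7 genes, at most 4 called genes per list and kind of comparison, and the 2 genes most like each of the 7 among those with a mean CPM of at least 10. Transcript starts were read from GENCODE M21 transcripts because the promoter table held only 5 of the 7 genes. The starts of 2 of the 7 genes are not reported here.

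Heavy and light sides of 1 gradient share a lysate; their deviations from the group means correlated at 0.008 to 0.253 (11 of 24 over 0.1). Letters of the labels did not pair stages (0 of 21 heavy and 2 of 20 transcriptome correlations over 0.1). Amplified reads without molecular identifiers are not independent molecules, so depth bounds counting error only.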

Additional observations from a re-analysis of the deposited data

Results flagged for a closer look

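One transcriptome library stood apart from its group. Eef1e1 held 122.0 CPM in the 2-cell library F and 84.8 to 85.7 CPM in the other 3, and the gap took up 0.976 of the group's range, above Dixon's 95% critical value for 4 samples. It was 1 of 56 groups looked at, and chance alone gives about 1 in 20.

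For 2 genes the difference between heavy and light fractions itself differed between the GV oocyte and the blastocyst, tested as an interaction in limma, where 15% of all genes were called. For Eef1d the change was 1.61 (95% interval 0.90 to 2.33, limma adjusted p = 0.0019), from a light side higher in 3 of 3 GV gradients to a heavy side higher in 3 of 3 blastocyst gradients. It was kept under 8 of 10 alternatives chosen after seeing the data, and lost with equal weights (limma adjusted p = 0.26) and with the mean of log2 over fractions (0.98, limma adjusted p = 0.35). It was also kept without any 1 of the 6 gradients (1.47 to 1.77). For Eefsec the change was 1.49 (95% interval 0.47 to 2.51, limma adjusted p = 0.045). It was kept under 6 of the 10 alternatives and without 1 of the 6 gradients, blastocyst B (1.83). The limma adjusted p was 0.1 without GV gradient A, 0.12 without B and 0.14 without C, and 0.086 without blastocyst gradient A and 0.2 without C (1.12).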

How the results depend on the processing

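Between consecutive stages, 18 of 49 pairs of gene and step were called in the transcriptome, 12 of 49 in the heavy fractions and 10 of 49 beyond the transcriptome, and 6 of 56 pairs of gene and stage between heavy and light. No called change reversed under any alternative run. Called under every one were 16, 3, 3 and 1 of them, in that order. Leaving out 1 library or gradient at a time gave 18 to 19, 10 to 14, 7 to 11 and 4 to 6 calls. Without the 2-cell and 4-cell gradients, 3 calls between heavy and light were left where 5 had been made in the same stages, and with equal weights 16 pairs were called beyond the transcriptome. The cause of neither was tested. With the replicate block by letter, 8 of 35 pairs were called in the transcriptome (8 without), 13 of 49 in the heavy fractions, 7 of 35 beyond the transcriptome (5 without) and 6 of 56 between heavy and light, and with the replicate block by gradient 7 of 56. No block could be fitted for steps with 2-cell transcriptomes, whose columns carry letters E to H where the labels give A to D. Quantile normalization moved the median of all genes from -0.11 to 0.16 for GV to MII and from 0.37 to -0.075 for zygote to 2-cell in the transcriptome, and the counts of genes called higher and lower from 1334 and 3712 to 3235 and 2578 and from 3685 and 1276 to 2188 and 2529. Depth limits the 2-cell and 4-cell gradients most as a group, and fraction 1 of GV gradients A and B as single libraries.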

Other observations

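Among enzymes that act on the elongation factors, Eef2k, the kinase that inhibits eEF2, dropped by 4.85 in the transcriptome from the 2-cell to the 4-cell stage. Its level went from 64.4 ± 15.2 to 1.23 ± 0.163 CPM (SD, n = 4, limma adjusted p = 8.85e-19), at a step where 32.9% of all genes fell. Eef2 rose at that step, and a link between these genes was not tested. The heavy-fraction level of Eef2k dropped by 8.62 there (limma adjusted p = 5.00e-06), beside 10.9% of all genes called lower. This value rests on the 2-cell and 4-cell gradients, which agreed least. Eef1akmt4, named as a lysine methyltransferase of eEF1A, dropped by 4.21 from GV to MII (25 ± 3.33 to 0.403 ± 0.0687 CPM, limma adjusted p = 1.66e-24). Eef1akmt1, another, rose by 3.86 from zygote to 2-cell and reached 14.7 ± 4.08 CPM (limma adjusted p = 7.86e-22). Dohh, which completes hypusine on eIF5A, rose by 3.78 from 2-cell to 4-cell (limma adjusted p = 1.83e-16). Of the 5 mitochondrial elongation factor genes, Tufm rose by 5.33 at the same step (limma adjusted p = 2.80e-21), where 31.8% of all genes rose. Its heavy-fraction level had dropped by 2.52 from GV to MII (limma adjusted p = 0.006). Gfm1 and Tsfm dropped by 1.27 and 1.23 in the transcriptome from zygote to 2-cell (limma adjusted p = 6.70e-10 and 6.58e-07).

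Of the 7 other genes of selenocysteine incorporation, 2 rose and 3 fell from 2-cell to 4-cell (median -0.86, beside 0.017 over all genes), where 31.8% of all genes rose and 32.9% fell, so the counts lie near those shares. Sephs2, the selenophosphate synthetase, dropped by 3.04, from 31.2 ± 3.22 to 3.24 ± 2.09 CPM (SD, n = 4, limma adjusted p = 4.86e-13), and Sephs1 rose by 2.40 (limma adjusted p = 8.65e-13). Sepsecs, which makes selenocysteinyl-tRNA, had dropped by 2.69 from zygote to 2-cell (from 85.4 ± 7.96 CPM, limma adjusted p = 2.86e-14), and Pstk, the kinase before it, by 2.73 from GV to MII (limma adjusted p = 4.13e-15). Among the synthetase complex partners, Aimp1 (4.48), Lars (4.37), Rars (4.27) and Mars1 (3.22) rose most from 2-cell to 4-cell, with limma adjusted p of 4.10e-19, 2.56e-18, 2.75e-20 and 1.58e-11.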
